A study of Mus musculus with 18 samples.

Results

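The p53 DNA damage response was followed through 10 of its transcriptional target genes in the mouse larynx: Cdkn1a, Ccng1, Mdm2, Bbc3, Bax, Phlda3, Eda2r, Trp53inp1, Zmat3 and Sesn1. They were chosen by gene name from the 54532 genes of the count table, each name matched 1 row, and 10 of 10 passed the filter on low counts that left 17537 genes for testing. The larynges came from male C57BL6/J mice of 8 to 9 weeks. Mice breathed room air, smoke of 3R4F reference cigarettes, or aerosol of JUUL Virginia tobacco e-cigarettes in a whole-body chamber, for 1 hour on 5 days a week over 4 weeks, and each group has 6 libraries. The labels name no transgene, allele or other agent. Whether each library is 1 animal is not stated. The p-values therefore speak only for the spread among libraries, part of which may be technical.

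p53 is a transcription factor that is kept low by the ubiquitin ligase Mdm2 and is stabilised when DNA is broken or otherwise damaged. It then binds paired half-sites in DNA and raises genes that halt the cell cycle, start apoptosis, limit oxidants or feed back on p53 itself. Cigarette smoke contains compounds that form DNA adducts, and the epithelium lining the larynx is among the first surfaces that inhaled smoke or aerosol meets. Much p53 control acts on the protein, which RNA counts do not measure.

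Depth was 15.6 to 22.5 M counts per library. Levels are given as CPM, reads per 1000000 in a library whose size was scaled by the trimmed mean of M-values (TMM), and levels of different genes are compared only as CPM per kb of gene length. Libraries differed in adjoining tissue. The share of Tg, the thyroglobulin gene, ranged from 6.13% to 10.2% for air and from 5.87% to 9.24% for smoke. E-cigarette libraries 1 and 3 held 2.69% and 2.77%, while libraries 2, 4, 5 and 6 held at most 0.271%, with the least, 0.00795%, in library 5. In a whole larynx, fewer cells of a type and less RNA per cell cannot be told apart. A gene is said to have risen or fallen, or to be called, at an adjusted p below 0.05 in edgeR's quasi-likelihood test with Benjamini-Hochberg adjustment over all tested genes, and all adjusted p-values are from that fit unless another tool is named. The air libraries serve in both comparisons with air, so those comparisons share their controls.

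Promoter sequences are shown for 4 members, because Cdkn1a and Ccng1 hold the closest matches to the p53 response element near a start site, while Bbc3 and Phlda3 are called members with a weaker match and with none. The reference tables of RefSeq (GRCm38.p6) held promoters for 8 of the 10 genes, in 12 windows of the 250 bases before annotated starts. The response element was searched, on both strands, as 2 adjoining 10-base half-sites (20 bases in all) with up to 3 mismatches. The core C and G of each half-site had to match, so mismatches were allowed only at the other bases. It lay in 0.0579% of 32841 windows of this length with at most 1 mismatch, in 0.271% with at most 2 and in 1.14% with at most 3. The limit of 3 was set after the matches of these genes had been seen. In each sequence the capitals mark the matched 20 bases, and Phlda3, with no match, is in lower case throughout. Cdkn1a is read from the plus strand at chr17:29090729-29090978, Ccng1 from the minus strand at chr11:40755287-40755536, Bbc3 from the plus strand at chr7:16309333-16309582 and Phlda3 from the plus strand at chr1:135765835-135766084.
Cdkn1a: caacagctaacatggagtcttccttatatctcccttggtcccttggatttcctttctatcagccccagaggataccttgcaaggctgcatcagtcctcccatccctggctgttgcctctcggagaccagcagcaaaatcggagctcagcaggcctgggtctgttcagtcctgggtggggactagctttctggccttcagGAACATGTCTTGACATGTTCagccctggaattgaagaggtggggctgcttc
Ccng1: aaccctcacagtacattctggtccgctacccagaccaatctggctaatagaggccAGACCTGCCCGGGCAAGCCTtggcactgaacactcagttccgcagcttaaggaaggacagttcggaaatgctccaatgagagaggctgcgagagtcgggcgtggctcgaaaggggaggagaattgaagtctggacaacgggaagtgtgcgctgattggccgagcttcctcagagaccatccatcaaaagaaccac
Bbc3: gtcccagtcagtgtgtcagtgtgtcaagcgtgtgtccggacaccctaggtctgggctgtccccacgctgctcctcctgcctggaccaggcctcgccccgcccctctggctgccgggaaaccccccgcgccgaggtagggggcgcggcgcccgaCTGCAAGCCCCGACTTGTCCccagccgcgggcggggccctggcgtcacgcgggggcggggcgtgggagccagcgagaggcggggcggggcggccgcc
Phlda3: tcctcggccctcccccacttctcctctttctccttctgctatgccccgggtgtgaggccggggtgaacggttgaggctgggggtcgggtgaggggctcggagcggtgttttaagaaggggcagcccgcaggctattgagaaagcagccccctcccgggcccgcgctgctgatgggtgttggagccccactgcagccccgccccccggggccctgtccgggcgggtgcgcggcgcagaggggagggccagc

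The Cdkn1a match had 1 mismatch and spanned bases -51 to -32 from the first of its 2 annotated starts. The window of the second Cdkn1a start held no match. The Ccng1 match also had 1 mismatch, at bases -195 to -176. The Bbc3 match had 3 mismatches, at bases -97 to -78 from the first of its 3 starts, and the windows of the later Bbc3 starts held none. A second start of Sesn1 held a match with 3 mismatches at bases -173 to -154. Mdm2 and Bax held 1 exact half-site each in their windows, as 7.13% of all windows did, and Eda2r and Phlda3 held neither form. These matches describe letters and do not show binding. Trp53inp1 and Zmat3 had no entry.

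Per kb of gene length the 10 genes spanned a wide range of levels in air. Ccng1, which encodes cyclin G1, was highest at 76.2 ± 6.73 CPM per kb (SD, n = 6 here and below). Phlda3, an inhibitor of AKT signalling, followed at 51.3 ± 5.15 and Cdkn1a, the cyclin-dependent kinase inhibitor p21, at 25.1 ± 15.6 CPM per kb. Bax was at 18.4 ± 2.25, Sesn1 at 15.4 ± 2.53 and Mdm2 at 14.3 ± 1.53 CPM per kb, and the ranges of neighbours in this order overlapped from Phlda3 down to Mdm2. Trp53inp1 was at 6.51 ± 1.79 and Bbc3 at 4.68 ± 0.479 CPM per kb, again with overlapping ranges. Zmat3 at 1.72 ± 0.233 and Eda2r at 1.15 ± 0.278 CPM per kb were lowest and overlapped each other. No overlap was seen between Ccng1 and Phlda3, between Mdm2 and Trp53inp1, or between Bbc3 and Zmat3. In smoke and in e-cigarette libraries Sesn1 stood above Bax, with overlapping ranges, and the other ranks were as in air.

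**Figure D1:**
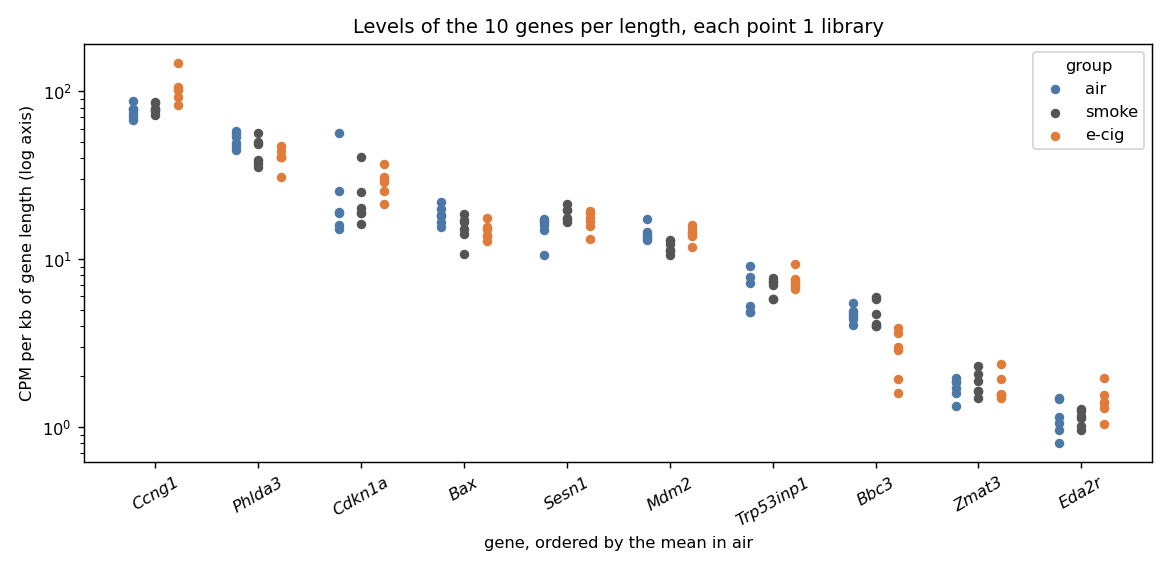
CPM per kb of gene length (log axis) of the 10 genes in order of their air mean, each point 1 library, coloured by group. Ccng1 lies highest (76.2 CPM per kb in air) and Eda2r lowest (1.15 CPM per kb in air) in every group.

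The first question is whether 4 weeks of either exposure went with higher p53 target transcripts than air. After cigarette smoke, 0 of the 10 genes were called by edgeR, against 1.59% of all tested genes (0.975% higher and 0.616% lower). Of the 10, 5 lay above 0 and 5 below, with a median log2 fold change of 0.00, as over all tested genes the median was 0.01. At an unadjusted p below 0.05 there were 3 genes, Mdm2 and Bax lower and Sesn1 higher, against 19.9% of all genes. DESeq2 called 1, Mdm2, and limma voom 0. After e-cigarette aerosol 1 gene rose, Ccng1, and 2 fell, Bbc3 and Phlda3. These 3 of 10 stand beside 25.1% of all tested genes called in that comparison, 12.1% higher and 13.0% lower, and the median was 0.08 beside 0.01 over all genes. Between smoke and e-cigarette, Ccng1 was called lower in smoke and Bbc3 higher, 2 of 10 beside 16.5% of all genes (10.4% higher and 6.10% lower in smoke), with a median of -0.04 beside -0.01.

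**Figure D2:**
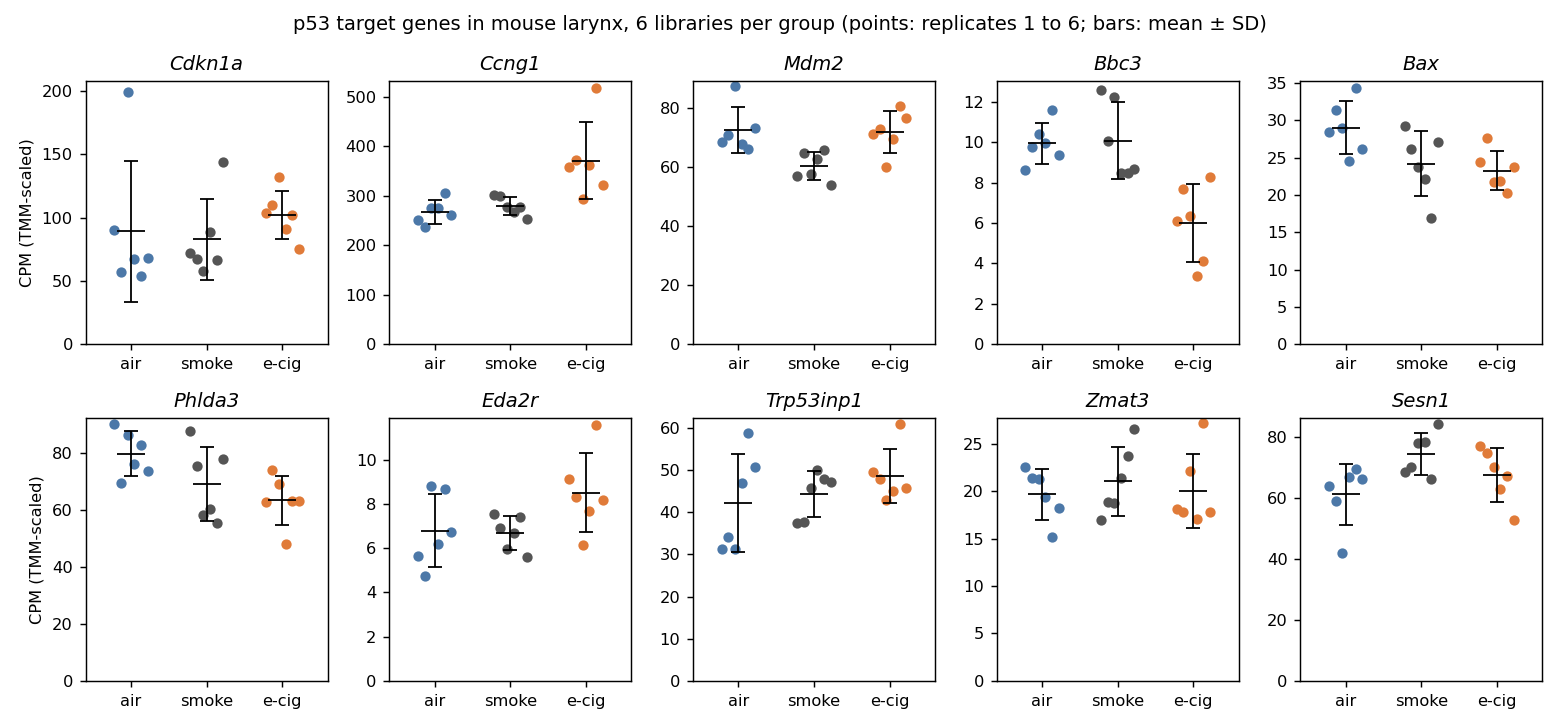
CPM of each gene in each of 18 libraries, 6 per group, with a bar at the mean and whiskers of 1 SD; each panel has its own axis from 0. Ccng1 reached 518 CPM in 1 e-cigarette library, Bbc3 was lower in every e-cigarette library than in any air library, and Cdkn1a had 1 air library at 199 CPM.

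Cell cycle arrest is represented by Cdkn1a and Ccng1. Cdkn1a (ENSMUSG00000023067, chromosome 17, 29090976 to 29100727, plus strand), which blocks cyclin-dependent kinases and is the classical p53 target, had air values of 53.5, 67.4 and 199 CPM (lowest, median and highest). It was at 57.8, 69.5 and 144 CPM in smoke and at 75.5, 102.6 and 132 CPM in e-cigarette libraries. The groups overlapped, and the highest values were those of air 3 and smoke 6. Smoke differed from air by -0.11 (SE 0.30, adjusted p = 0.884), with a 95% interval of 0.599 to 1.44-fold. E-cigarette differed from air by 0.20 (SE 0.30, adjusted p = 0.667), an interval of 0.740 to 1.78-fold. Smoke differed from e-cigarette by -0.31 (SE 0.30, adjusted p = 0.534), an interval of 0.521 to 1.26-fold.

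The Cdkn1a differences from air moved with air 3, and that between smoke and e-cigarette with smoke 6. Without air 3, the e-cigarette difference from air was 0.60 and called (adjusted p = 0.0499), and the smoke difference turned to 0.29 without a call. Of the 18 fits without 1 library, this was the only 1 to call Cdkn1a in e-cigarette versus air. Air 3 is singled out here by its Cdkn1a value, so this call is not read as a test. Without smoke 6, smoke was at -0.54 against e-cigarette (adjusted p = 0.234) and at -0.36 against air. Without air 3 and smoke 6 together, the values were 0.60 for e-cigarette against air, 0.06 for smoke against air and -0.54 for smoke against e-cigarette. Those 2 libraries were left out because of their Cdkn1a values, so no test is read from that fit. Summed over 12 further p53 targets in cell cycle arrest, air 3 was at 1057 CPM, beside 413 to 530 CPM in the other air libraries. Smoke 6 was at 625 CPM, beside 382 to 501 CPM in the other smoke libraries. Over 14 cell death targets air 3 was at 612 CPM (air range 522 to 703 CPM) and smoke 6 highest in smoke at 767 CPM. Over 20 repair and metabolism targets both were highest in their group, at 1413 and 1309 CPM. The part of p53 in these sums was not tested. Air 3 also had the highest summed CPM of 14 immediate early genes, which respond within minutes to handling or injury, at 1556 CPM. Air 2 was at 1439 CPM with 56.8 CPM of Cdkn1a, and the other 4 air libraries were at 561 to 770 CPM. Fos itself was at 104 CPM in air 2, at 43.1 CPM in air 3 and at 8.98 CPM in smoke 6. The part of this response in the Cdkn1a values was not tested. An antisense gene, AC167363.2, overlaps Cdkn1a, which matters where strand is not marked, and it held 5 to 24 counts per library beside at least 940 for Cdkn1a.

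The genes most like Cdkn1a across the 18 libraries, after each group's mean was subtracted, were Zswim4 (Pearson r = 0.96), Shb (0.96), Cerk (0.94), Tgm1 (0.93) and Pard6b (0.93). Tgm1, a transglutaminase of the cornified epithelial envelope, was at 197 CPM in air 3 against a median of 54.1 CPM in the other air libraries. It was at 121 CPM in smoke 6 against a median of 44.5 CPM in the other smoke libraries. Zswim4 was at 51.4 CPM in air 3 against 20.8 CPM, and at 41.6 CPM in smoke 6 against 20.8 CPM. High values in these 2 libraries follow from the choice, since the 5 genes were picked for their likeness to Cdkn1a, which is highest there. Summed over 12 squamous and basal epithelial genes, air 3 was at 9708 CPM within an air range of 4907 to 11317 CPM, and smoke 6 was at 21461 CPM above the other smoke libraries (4129 to 13276 CPM). Its part in Cdkn1a was not tested.

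Ccng1 (ENSMUSG00000020326, chromosome 11, 40748552 to 40755311, minus strand) encodes cyclin G1, which binds phosphatase 2A and acts on Mdm2. It was at 251, 238, 275, 275, 306 and 261 CPM in air 1 to 6 and at 302, 300.4, 277, 268, 277 and 254 CPM in smoke 1 to 6. In e-cigarette 1 to 6 it was at 359, 372, 293, 362, 518 and 323 CPM. Only e-cigarette 3 lay within the air range, and the others lay above all air and smoke values. Ccng1 rose from 268 ± 23.7 to 371 ± 77.9 CPM in e-cigarette (log2 fold change 0.47, SE 0.11, adjusted p = 0.00367), a fold of 1.39 with a 95% interval of 1.18 to 1.63. In smoke it was at 280 ± 18.8 CPM, which is 0.06 from air (SE 0.11, adjusted p = 0.792, interval 0.892 to 1.23-fold). Smoke was lower than e-cigarette by 0.41 (log2 fold change -0.41, SE 0.11, adjusted p = 0.0154). The 2 calls held in 18 of 18 fits without 1 library.

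Mdm2 (ENSMUSG00000020184, chromosome 10, 117688875 to 117710758, minus strand) is both a p53 target and the ligase that marks p53 for degradation. Its lowest, median and highest values were 66.4, 69.9 and 87.6 CPM for air, 54.0, 60.3 and 65.9 CPM for smoke, and 60.0, 72.1 and 80.8 CPM for e-cigarette. All 6 smoke values lay below all 6 air values, which held for 0.890% of all tested genes. The difference of smoke from air was -0.26 (SE 0.09, adjusted p = 0.104), 0.833-fold with an interval of 0.736 to 0.943, and DESeq2 called it (-0.29, adjusted p = 0.0392). Over 33 alternatives it ranged from -0.35 to -0.19, without a change of sign. E-cigarette differed from air by -0.01 (SE 0.09, adjusted p = 0.927, interval 0.875 to 1.12-fold). Smoke differed from e-cigarette by -0.25 (SE 0.09, adjusted p = 0.0512), a difference that was called in 10 of 33 alternatives.

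Apoptosis is represented by Bbc3, Bax and Eda2r. Bbc3 (ENSMUSG00000002083, chromosome 7, 16308393 to 16318205, plus strand) encodes PUMA, a BH3-only protein that frees Bax to permeabilise mitochondria. It was at 8.60, 9.78, 10.4, 9.94, 11.6 and 9.35 CPM in air 1 to 6, and at 8.45, 9.37 and 12.6 CPM (lowest, median, highest) in smoke. In e-cigarette 1 to 6 it was at 6.08, 7.70, 6.37, 3.40, 4.10 and 8.29 CPM. All 6 e-cigarette values lay below all 6 air values, as in 6.00% of tested genes, and below all 6 smoke values, as in 6.65%. Bbc3 fell by 0.73 in e-cigarette against air (log2 fold change -0.73, SE 0.18, adjusted p = 0.00639), 0.603-fold with an interval of 0.462 to 0.787. It was 0.75 higher in smoke than in e-cigarette (SE 0.18, adjusted p = 0.00859). Smoke and air differed by 0.02 (SE 0.18, adjusted p = 0.968, interval 0.779 to 1.32-fold). Counts behind these values were 63 to 217 per library.

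Thyroid tissue content also differed between the e-cigarette and the air libraries, and its values are given beside those of Ccng1, Bbc3 and Phlda3. Of 11 thyroid follicle genes 8 fell and 1 rose in e-cigarette, and their summed CPM ranged between 57194 and 98957 for air, 58158 and 95649 for smoke, and 137 and 29316 for e-cigarette. Their log2 fold changes in smoke versus air ranged from -0.54 to 0.18. Of 6 parathyroid genes 6 fell in e-cigarette, and Pth was at 0 in e-cigarette 4 and 5. The lowest Bbc3 values, 3.40 and 4.10 CPM, and the highest Ccng1 value, 518 CPM, were in these 2 libraries. Pth was also low in smoke 1 and 3 (0.128 and 0.0563 CPM), where Bbc3 was highest, at 12.6 and 12.2 CPM. It was low in smoke 6 too (5.68 CPM), where Bbc3 was at 8.69 CPM, in the lower part of the smoke range. In air 4 Pth was at 2.34 CPM and Bbc3 at 9.94 CPM. In e-cigarette 1 and 3, which held the most Tg, Bbc3 was below the air range and Ccng1 was at 359 and 293 CPM. The highest Bbc3 values of the group, 8.29 and 7.70 CPM, were in e-cigarette 6 and 2, at 0.271% and 0.0729% Tg. E-cigarette 4 and 5, with the lowest Bbc3, held 0.00854% and 0.00795%. Without e-cigarette 2, 4, 5 and 6, Bbc3 was at -0.69 against air (adjusted p = 0.0561), Ccng1 at 0.26 (adjusted p = 0.251) and Phlda3 at -0.29 (adjusted p = 0.352). With the thyroid score as a covariate, Bbc3 was at -0.20 (adjusted p = 0.867), Ccng1 at 0.13 (adjusted p = 0.838) and Phlda3 at -0.21 (adjusted p = 0.749). Exposure and thyroid content cannot be told apart in these libraries. Fast skeletal muscle genes were also higher in e-cigarette (9 of 14 rose, beside 12.1% of all tested genes). Their summed CPM was between 37913 and 49956 against an air range of 20493 to 37391, and the part of muscle was not tested on its own.

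**Figure D3:**
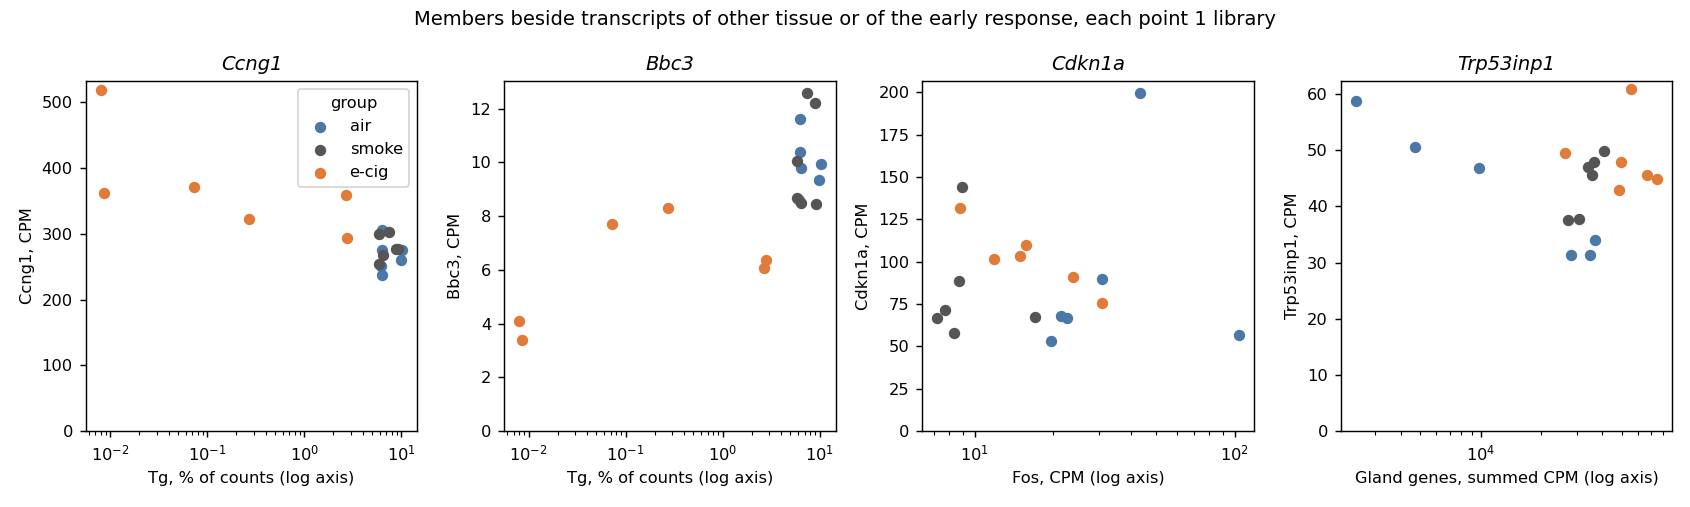
CPM of 4 genes against another transcript measure in the same library (log x axes), each point 1 library: Ccng1 and Bbc3 against the share of counts from Tg, Cdkn1a against Fos, and Trp53inp1 against the summed CPM of gland genes. Bbc3 is lowest (3.40 and 4.10 CPM) and Ccng1 highest (518 CPM) among the libraries with the least Tg, and Cdkn1a is highest in air 3 (199 CPM).

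Bax (ENSMUSG00000003873, chromosome 7, 45461697 to 45466898, minus strand), the pore-forming protein on which PUMA acts, was at 24.6, 28.7 and 34.4 CPM (lowest, median, highest) in air. It was at 16.8, 24.9 and 29.2 CPM in smoke and 20.2, 22.8 and 27.6 CPM in e-cigarette, and the groups overlapped. It did not pass the test in smoke (-0.26, SE 0.12, adjusted p = 0.228) or in e-cigarette (-0.32, SE 0.12, adjusted p = 0.0563). In e-cigarette it was called in 10 of 33 alternatives, and its sign held in all of them. The protein-coding gene Gm45808 overlaps Bax on the same strand and held 0 counts in every library. How reads in the shared stretch were counted is not stated. Eda2r (ENSMUSG00000034457, chromosome X, 97333840 to 97377216, minus strand), a receptor of the tumour necrosis factor family, was the least abundant member per kb. Its means were 6.79 ± 1.64 CPM for air, 6.68 ± 0.761 CPM for smoke and 8.50 ± 1.79 CPM for e-cigarette, with overlapping groups. The differences from air were -0.02 in smoke (adjusted p = 0.955) and 0.32 in e-cigarette (SE 0.16, adjusted p = 0.158).

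Phlda3 (ENSMUSG00000041801, chromosome 1, 135766119 to 135769136, plus strand) encodes a pleckstrin homology protein that competes with AKT at the membrane. Its lowest, median and highest values were 69.4, 79.6 and 90.4 CPM for air, 55.6, 67.9 and 87.8 CPM for smoke, and 48.0, 63.2 and 74.0 CPM for e-cigarette. The e-cigarette values reached into the lower part of the air range. Phlda3 fell in e-cigarette by 0.33 (log2 fold change -0.33, SE 0.12, adjusted p = 0.0439), 0.794-fold with an interval of 0.669 to 0.942. The call was lost in 15 of 33 alternatives, and the sign held in all 33. Among the losses were the fits without air 1, 3 or 5 and without e-cigarette 1, 4, 5 or 6 (adjusted p 0.0546 to 0.0935), and the fit with 4 composition scores (-0.36, adjusted p = 0.376). Smoke differed from air by -0.21 (SE 0.12, adjusted p = 0.339).

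Trp53inp1, Zmat3 and Sesn1 act in p53 feedback, RNA binding and the control of growth and oxidants, and none was called in any of the 3 comparisons. Trp53inp1 (ENSMUSG00000028211, chromosome 4, 11156431 to 11174379, plus strand), a nuclear protein that promotes p53 phosphorylation, was at 31.3, 34.0, 31.3, 46.8, 58.7 and 50.6 CPM in air 1 to 6. Air 1, 2 and 3 were thus all below air 4, 5 and 6. Smoke spanned 37.5 to 49.9 CPM and e-cigarette 42.9 to 60.8 CPM. The differences from air were 0.07 in smoke (SE 0.15, adjusted p = 0.826) and 0.21 in e-cigarette (SE 0.14, adjusted p = 0.319). Without air 4, 5 and 6 the e-cigarette difference was 0.59 and called (adjusted p = 0.00273), and without air 1, 2 and 3 it was -0.11. Air 4, 5 and 6 were low in 11 gland genes, at a summed 2395 to 9818 CPM against 28051 to 36876 CPM in air 1, 2 and 3, and in the cartilage gene Acan, at 6.09 to 17.6 CPM against 83.2 to 141 CPM. With 4 composition scores as covariates (thyroid, cartilage, muscle and adipocyte), the differences of Trp53inp1 from air were 0.50 in smoke (adjusted p = 0.0880) and 0.51 in e-cigarette (adjusted p = 0.0914). Gland content was not among these scores, and its part was not tested.

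Sesn1 (ENSMUSG00000038332, chromosome 10, 41809935 to 41908424, plus strand), which encodes sestrin 1, an inhibitor of mTORC1 signalling, was at 41.9, 65.1 and 69.4 CPM (lowest, median, highest) in air. It was at 66.4, 74.2 and 84.3 CPM in smoke and 52.8, 68.9 and 77.0 CPM in e-cigarette. Only smoke 1 and smoke 5 lay below the highest air value, and the difference did not pass the test (0.28, SE 0.11, adjusted p = 0.170, interval 1.03 to 1.43-fold). Its sign held in 33 of 33 alternatives, from 0.13 to 0.42. E-cigarette differed from air by 0.14 (SE 0.11, adjusted p = 0.387). Zmat3 (ENSMUSG00000027663, chromosome 3, 32334792 to 32366014, minus strand), a zinc finger protein that binds RNA, averaged 19.7 ± 2.66 CPM for air, 21.0 ± 3.61 CPM for smoke and 20.01 ± 3.93 CPM for e-cigarette. It differed from air by 0.10 in smoke (adjusted p = 0.733) and 0.03 in e-cigarette (adjusted p = 0.912).

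**Figure D4:**
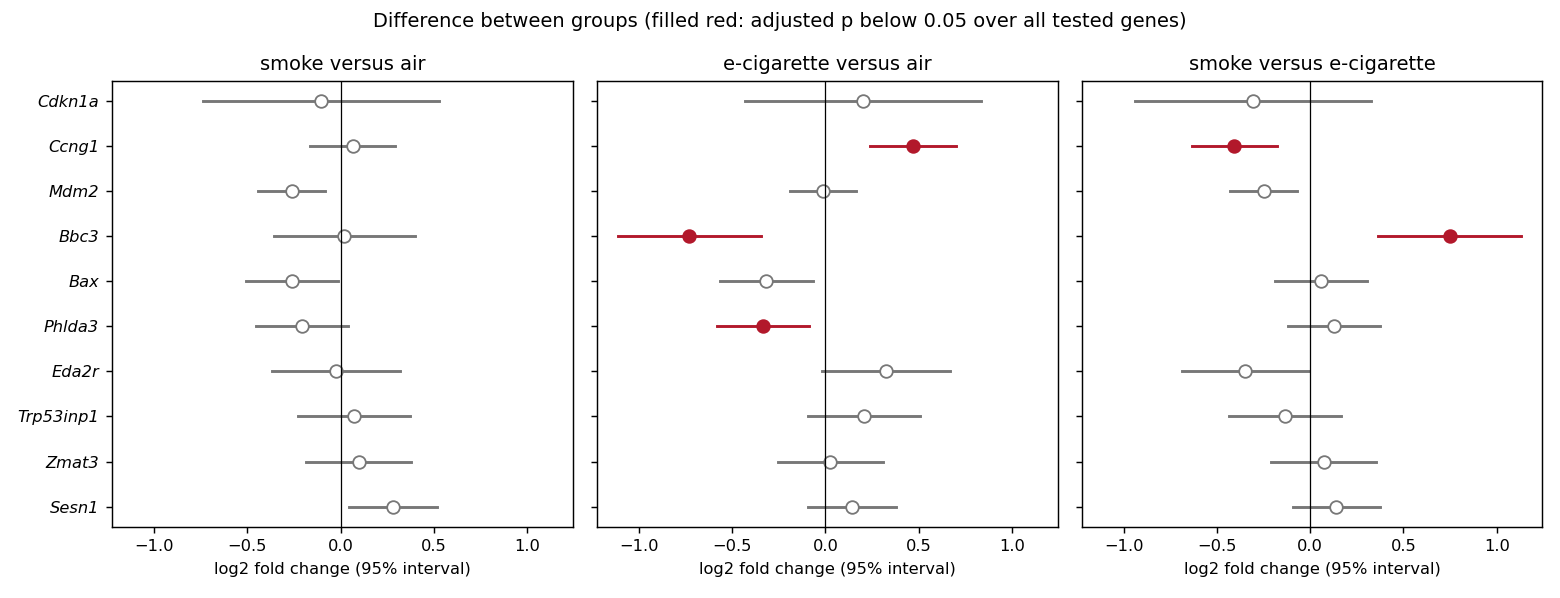
Log2 fold change with its 95% interval for each gene in the 3 comparisons; filled red points passed the test over all tested genes. In smoke versus air no point is filled, and in e-cigarette versus air Ccng1 (0.47), Bbc3 (-0.73) and Phlda3 (-0.33) are.

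The 10 genes did not vary as a single unit between libraries. After each group's mean was subtracted, 21 of the 45 pairs were positively and 24 negatively correlated over the 18 libraries, with a median Pearson r of -0.01. The extremes were Ccng1 with Eda2r at 0.80 and Mdm2 with Sesn1 at -0.65. The points of each pair share their libraries and their tissue content.

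The same question was put to p53 itself and to genes that regulate it. Trp53, which encodes p53, averaged 36.7 ± 8.07 CPM for air, 36.2 ± 1.48 CPM for smoke and 30.6 ± 5.30 CPM for e-cigarette. Its differences from air were -0.02 (adjusted p = 0.953) and -0.26 (SE 0.13, adjusted p = 0.148). Mdm4, a p53 inhibitor related to Mdm2, was at 124 ± 23.0, 120 ± 10.4 and 117 ± 15.8 CPM, with differences from air of -0.05 (adjusted p = 0.845) and -0.09 (adjusted p = 0.610). Of 19 tested regulators 0 were called by edgeR in smoke versus air (2 at an unadjusted p below 0.05, and 0 by DESeq2 and by voom). The shares over all tested genes were 1.59% called by edgeR and 19.9% at an unadjusted p below 0.05. In e-cigarette versus air 1 of the 19 was called, beside 25.1% of all tested genes. It was Trp63, the p53 relative of basal epithelial cells, which rose from 44.8 ± 9.87 to 71.5 ± 10.5 CPM (0.67, SE 0.14, adjusted p = 0.00159). Trp63 was also lower in smoke than in e-cigarette (-0.49, adjusted p = 0.0222), as was the ubiquitin ligase gene Cop1 (-0.28, adjusted p = 0.0131), and the DNA damage mediator gene Mdc1 was higher (0.32, adjusted p = 0.0180). These 3 of 19 stand beside 16.5% of all tested genes. Without e-cigarette 2, 4, 5 and 6, 0 regulators were called in these 2 comparisons, and without air 4, 5 and 6, 6 were called in e-cigarette versus air. The summed CPM of squamous and basal genes ranged from 4907 to 11317 for air and from 9550 to 24647 for e-cigarette, and 1 of 12 of them rose. Their part in Trp63 was not tested.

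Further p53 targets were followed in 3 lists. In smoke versus air 0 of 45 were called by edgeR (8 at an unadjusted p below 0.05, and 1 each by DESeq2 and voom). Over all tested genes edgeR called 1.59%, and 19.9% had an unadjusted p below 0.05. In e-cigarette versus air 5 rose and 6 fell, 24.4% of the 45 beside 25.1% of all tested genes, with a median of -0.01. The list's share is near that of all genes. Among 12 arrest genes 3 rose, beside 12.1% of all tested genes: Ptpn14, Ckap2 and Psrc1. Of these 12, 0 were called without e-cigarette 2, 4, 5 and 6 and 0 without air 1, 2 and 3, and 1 was called without air 3, without air 5 or without e-cigarette 3. Ckap2, a spindle protein, rose from 2.50 ± 0.845 to 5.85 ± 1.82 CPM (1.22, SE 0.31, adjusted p = 0.00619). Beside it, 14 of 20 cell cycle and mitosis genes rose in e-cigarette, with a median of 0.86, where 12.1% of all tested genes rose. Mki67 spanned 7.44 to 19.9 CPM for air and 17.5 to 48.1 CPM for e-cigarette. In place of 14, the count was 8 without e-cigarette 6, 4 without e-cigarette 2, 4, 5 and 6, 3 without air 1, 2 and 3, and 1 with the thyroid score. In smoke 1 of those 20 was called, beside 1.59% of all tested genes. It was the replication clamp gene Pcna, also a p53 target, which fell by 0.44 (log2 fold change -0.44, SE 0.10, adjusted p = 0.0282).

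Among 14 cell death targets 4 fell and 1 rose in e-cigarette, beside 13.0% lower and 12.1% higher over all tested genes. Bcl2l11, which encodes the BH3-only protein BIM, fell from 24.8 ± 2.21 to 15.9 ± 1.89 CPM (-0.65, SE 0.11, adjusted p = 3.12e-04). Its e-cigarette and air values did not overlap, and 6.00% of all tested genes lay wholly below air in this way. Bid, which encodes a further BH3-only protein, went from 10.4 ± 1.13 down to 7.77 ± 0.768 CPM (-0.43, SE 0.10, adjusted p = 0.00477), also without overlap. The death receptor gene Tnfrsf10b fell by 0.96 (SE 0.25, adjusted p = 0.00710) and Trp53i11 by 0.58 (SE 0.17, adjusted p = 0.0150), while Casp1, the inflammasome caspase, rose by 0.53 (SE 0.15, adjusted p = 0.0125). Bcl2l11 and Bid were also higher in smoke than in e-cigarette, by 0.58 and 0.31 (adjusted p = 0.00167 and 0.0455). Without e-cigarette 2, 4, 5 and 6, 0 of these 14 were called against air, and without air 1, 2 and 3, 2 were. The summed CPM of 12 lymphocyte genes was lower in every e-cigarette library (91.9 to 222) than in any air library (247 to 342). That of 10 macrophage and neutrophil genes was at 4947 to 10631 against 1956 to 6797. In air 1, 2 and 3 this sum was at 4813 to 6797, and in air 4, 5 and 6 at 1956 to 2540. Of the 8 macrophage and neutrophil genes tested 2 rose, beside 12.1% of all tested genes. Of the 4 lymphocyte genes tested 1 fell, beside 13.0%. The part of these immune cells in the cell death targets was not tested.

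Among 19 tested targets in repair and metabolism 1 rose and 2 fell in e-cigarette, beside 12.1% higher and 13.0% lower over all tested genes. Gdf15, a secreted stress cytokine, fell from 13.8 ± 7.10 CPM in air to 0.908 ± 0.852 CPM (-3.89, SE 0.56, adjusted p = 9.67e-05) and was at 4.87 ± 2.36 CPM in smoke. Sesn2, the sestrin related to Sesn1, fell from 23.3 ± 6.90 to 10.3 ± 1.85 CPM (-1.18, SE 0.16, adjusted p = 3.58e-05). Gdf15 and Sesn2 are targets of the integrated stress response as well as of p53. Their e-cigarette values lay below all air values, as in 6.00% of tested genes, and below all smoke values, as in 6.65%. Tigar, a fructose bisphosphatase that slows glycolysis, rose from 33.4 ± 3.00 to 39.9 ± 2.76 CPM (0.25, SE 0.08, adjusted p = 0.0302). Without e-cigarette 2, 4, 5 and 6, 2 genes of this list were called against air, both lower.

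**Figure D5:**
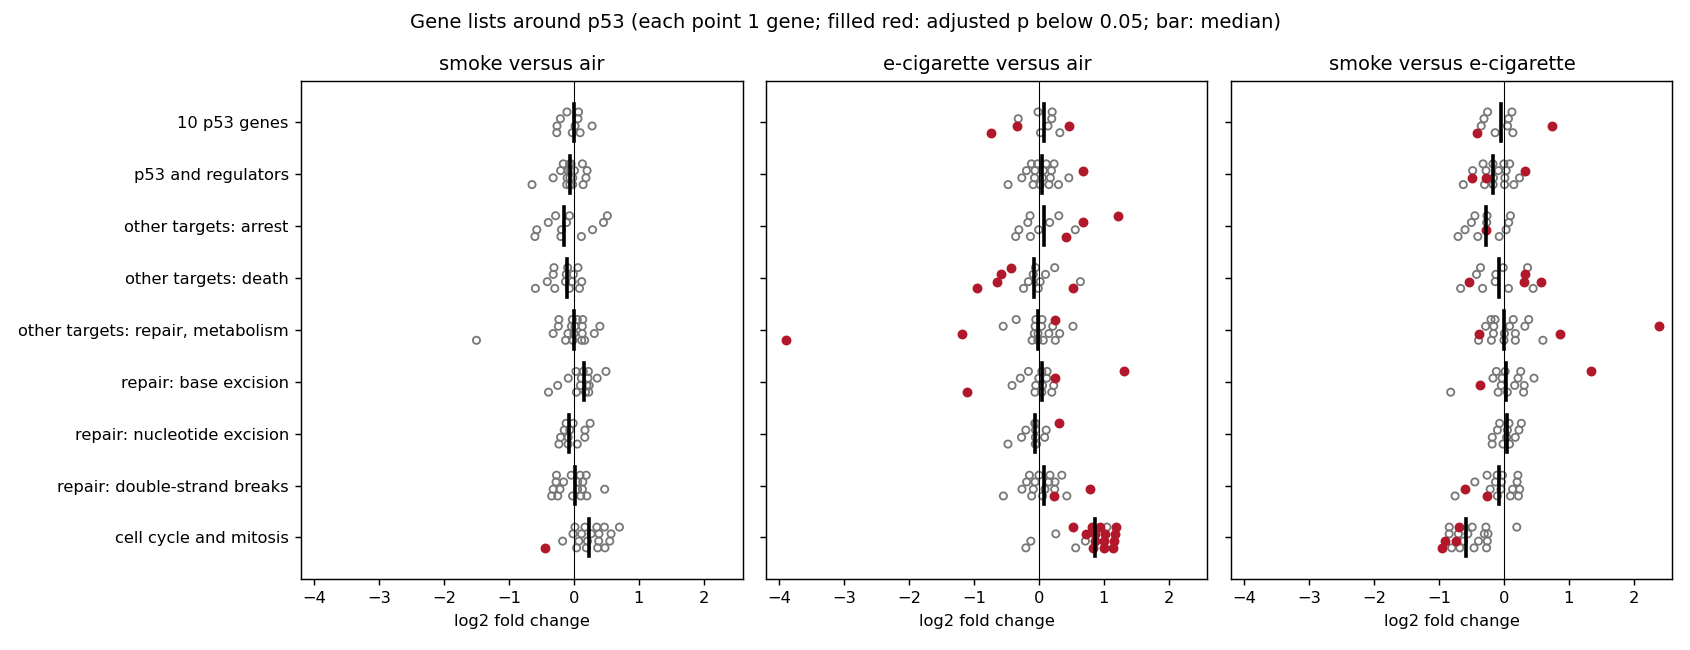
Log2 fold changes of the genes in 9 lists around p53 in the 3 comparisons, each point 1 gene, with a bar at the list median; filled red points passed the test over all tested genes. In smoke versus air 1 point is filled (Pcna, -0.44), and in e-cigarette versus air the cell cycle list has the highest median (0.86) and Gdf15 the lowest value (-3.89).

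DNA repair genes were followed in 3 lists of 46 tested genes. In smoke versus air 0 were called by edgeR (8 at an unadjusted p below 0.05, 1 by DESeq2 and 2 by voom), with a median of 0.05. All tested genes had 1.59% called by edgeR and 19.9% at an unadjusted p below 0.05. In e-cigarette versus air 5 rose and 1 fell, 13.0% of the 46 beside 25.1% of all tested genes, with a median of 0.00. The glycosylase gene Neil3, known for expression in dividing cells, rose by 1.31 (SE 0.40, adjusted p = 0.0209). The ligase gene Lig3 rose by 0.26, and Xrcc5, which encodes the Ku80 end-binding protein, rose by 0.23. The glycosylase gene Neil2 fell by 1.11 (SE 0.28, adjusted p = 0.00581). Between smoke and e-cigarette 4 were called, 1 higher and 3 lower in smoke, which is 8.70% of the 46 beside 16.5% of all tested genes. Without e-cigarette 2, 4, 5 and 6, 0 of the 46 were called against air.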

How the data were processed

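The authors deposited a table of raw counts per gene, whole numbers not normalized, with gene length and coordinates. Per the submitters' processing notes, STAR and featureCounts 1.5.0-p3 were used with GRCm38 (mm10). For the annotation release and the strand setting, the sources used here give nothing. The library kit does not mark strand. Depth was 15.6 to 22.5 M counts per library. Each column matched 1 sample title, and in 45 of 45 pairs within groups the counts differed by more than sampling noise.

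Genes were kept with filterByExpr (minimum count 10, minimum total 15), and 17537 were tested. The 3 groups were fitted together without covariates in edgeR 4.0.16 (R 4.3.3, TMM, robust quasi-likelihood), with Benjamini-Hochberg adjustment over all tested genes. SE derive from the F statistic. The step was tested on simulated data. Alternatives used DESeq2 1.42.0, voom in limma 3.58.1, other scalings and filters, covariates and left-out libraries. The genes and lists were chosen with earlier results of these data known. Named were the 10 genes, Trp53, Mdm4, fixed tissue markers, the 5 genes most like Cdkn1a and called list members with the smallest p, up to 3 per list and comparison. The text leaves out part of these, and some called list members are not reported here. Trp53i11, Trp73 and the overlapping genes AC167363.2 and Gm45808 were named after their values were seen.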

Additional observations from a re-analysis of the deposited data

Results flagged for a closer look

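In 5 of the 30 sets of 6 libraries (10 genes in 3 groups), 1 library stood apart from the other 5 by the Dixon criterion, which chance alone meets in about 1 set in 20. Cdkn1a was at 199 CPM in air 3 and at 144 CPM in smoke 6, and Mdm2 was at 87.6 CPM in air 3. Ccng1 was at 518 CPM and Trp53inp1 at 60.8 CPM in e-cigarette 5, which held the smallest share of Tg counts (0.00795%).

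The smoke and e-cigarette libraries differed by edgeR's test in Ccng1, by -0.41 on the log2 scale (smoke minus e-cigarette), and in Bbc3, by 0.75. With the thyroid score as a covariate in edgeR these were -0.08 (adjusted p = 0.907) and 0.25 (adjusted p = 0.837). Exposure and thyroid content cannot be told apart here.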

How the results depend on the processing

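The 33 alternatives include 18 fits without 1 library each. Of the 10 genes, DESeq2 called 1 in smoke versus air. With the thyroid score as covariate, with 4 composition scores (thyroid, cartilage, muscle, adipocyte), or without e-cigarette 2, 4, 5 and 6, 0 were called in e-cigarette versus air and 0 in smoke versus e-cigarette. The count over all genes in smoke versus air was 279, but 967 with DESeq2, 1114 with voom, 184 without a filter, 109 with only the 2 groups, 66 with 4 scores, 163 without e-cigarette 2, 4, 5 and 6, 451 without air 4, 5 and 6, 2198 without air 1, 2 and 3, 85 without air 3 and smoke 6 together, and 50 to 562 without 1 library. In e-cigarette versus air 4406 fell to 20 with the thyroid score, 321 with 4 scores and 688 without e-cigarette 2, 4, 5 and 6, and in smoke versus e-cigarette 2897 fell to 0, 0 and 147. The cause of these changes was not tested; the covariates and left-out libraries also leave fewer degrees of freedom.

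Same-numbered libraries of different groups were not more alike than others: 3 of 18 such pairs correlated above 0.1 (-0.45 to 0.16, median -0.07). Of 90 pairs with different numbers 32 did (-0.38 to 0.51, median 0.03). Whether same-numbered libraries shared handling cannot be read from these values. With the replicate block 39 genes were called in smoke versus air, none of them among the 10, and the block changed no call among the 10 genes in any comparison.

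Some differences that were not called changed sign in some fits, given here as log2 fold changes. In smoke versus air these were Bbc3 (-0.00505 with DESeq2, -0.00493 with voom, -0.00478 with RLE factors, -0.0467 with total counts, -0.00505 with TMM without thyroid and parathyroid genes, -0.00492 without a filter, -0.00351 with the replicate block, -0.00621 without e-cigarette 2, 4, 5 and 6, -0.0414 without air 1, 2 and 3), and -0.0527 to 0.0682 without 1 library. Cdkn1a was at 0.171 with voom, 0.0175 with the replicate block, 0.39 without air 1, 2 and 3, 0.0586 without air 3 and smoke 6 together, and -0.36 to 0.29 without 1 library. Eda2r was at 0.0340 with voom, 0.0940 with 4 scores, 0.0442 without air 4, 5 and 6, 0.0939 without air 3 and smoke 6 together, and -0.109 to 0.0580 without 1 library. With total counts Ccng1 was at -0.00155 and Trp53inp1 at -0.0126, and without air 1, 2 and 3 they were at -0.0129 and -0.242. Trp53inp1 was at -0.0313 without air 3 and smoke 6 together and -0.0112 to 0.190 without 1 library, and Zmat3 at -0.0482 with 4 scores and -0.0679 without air 4, 5 and 6.

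In e-cigarette versus air Mdm2 was at 0.00134 with voom, 0.0117 with upper-quartile factors, 0.0403 without air 1, 2 and 3, 0.0341 without air 3 and smoke 6 together, and -0.0668 to 0.0343 without 1 library. Zmat3 was at -0.0735 with total counts, -0.0827 with the thyroid score, -0.0997 with 4 scores, -0.122 without air 4, 5 and 6, and -0.0976 to 0.0677 without 1 library. Cdkn1a was at -0.162 with 4 scores and -0.182 without air 4, 5 and 6. Without air 1, 2 and 3 Trp53inp1 was at -0.110 and Sesn1 at -0.0109. In smoke versus e-cigarette, 4 scores gave 0.00875 for Mdm2, 0.0544 for Eda2r and -0.122 for Sesn1. Zmat3 was at -0.00791 without air 3 and smoke 6 together and -0.00791 to 0.181 without 1 library, and Bax at -0.00290 to 0.145 without 1 library. Scaling by total counts alone moved the median of all genes in e-cigarette versus air from 0.01 to -0.10.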

Other observations

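Within the air group, 33.5% of all tested genes had no overlap between libraries 1 to 3 and libraries 4 to 6, and of the 10 p53 targets 3 did. Trp53 and Mdm4 divided in this way too, a division that is thus common among the genes. Libraries 1, 2 and 3 held 45.9, 45.5 and 39.4 CPM of Trp53, and libraries 4, 5 and 6 held 31.2, 27.4 and 30.6 CPM. Mdm4 went the other way, with 104, 112 and 95.8 CPM in the first 3 and 135, 152 and 144 CPM in the others. Zmat3 spanned 21.3 to 22.5 CPM in the first 3 and 15.2 to 19.4 CPM in the others, and Sesn1 spanned 41.9 to 63.9 CPM and 66.2 to 69.4 CPM. The labels give no reason for this division.

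Of 10 NRF2 and oxidative stress genes, which answer oxidants rather than DNA breaks, edgeR called 0 in each of the 3 comparisons. At an unadjusted p below 0.05 there were 2 in smoke versus air, 1 in e-cigarette versus air and 0 in smoke versus e-cigarette. In the same order, edgeR called 1.59%, 25.1% and 16.5% of all tested genes. The shares at an unadjusted p below 0.05 were 19.9%, 36.9% and 29.4%. DESeq2 called 1 in smoke versus air and 0 in the other 2 comparisons, and voom 0 in all 3. Trp73, the third member of the p53 family, spanned 5.39 to 9.35 CPM for air, 4.39 to 8.34 CPM for smoke and 7.46 to 10.0 CPM for e-cigarette.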
